A study of Mus musculus with 6 samples.

Results

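The nuclear genome supplies most of the protein subunits of respiratory complexes II to V, and 39 of these genes were followed here through RNA sequencing of tumour-infiltrating CD8+ T cells. The genes were listed by name and not by a rule on measured values, although earlier results of these data were known. They were 4 of complex II, 9 of complex III, cytochrome c (Cycs), 11 of complex IV and 14 of complex V, out of 55471 gene IDs in the deposited tables. All 39 were found, and all 39 passed the filter on low counts that left 12546 genes for testing. The cells were OT-I T cells, whose receptor recognises an ovalbumin peptide, from mice with a Cas9 knock-in that is expressed throughout the body. They were transduced with a lentiviral vector that carried the marker CD90.1 and either a guide against Elovl1, an enzyme that lengthens saturated fatty acids (sgElovl1, 3 libraries), or a non-targeting guide (sgNT, 3 libraries). The cells were transferred into mice that bore orthotopic KPC_OVA tumours, an ovalbumin-expressing mouse pancreatic cancer line, and were sorted on CD90.1 from the primary tumour 7 days later. Every recipient, in both groups, had received anti-PD-1 (labelled aPD-1), and the labels give no age for the animals. The RNA of sgElovl1 replicates 1 and 2 each came from 2 tumours and that of the other 4 libraries from 1 tumour each.

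These complexes carry out oxidative phosphorylation in the inner mitochondrial membrane. Complex II (succinate dehydrogenase) oxidises succinate in the TCA cycle and passes the electrons to ubiquinone, complex III hands electrons from ubiquinol to cytochrome c, complex IV passes them to oxygen, and complex V (ATP synthase) uses the resulting proton gradient to make ATP. Complex II is encoded by nuclear genes alone, whereas the others also need subunits encoded by mitochondrial DNA, so that transcripts of both genomes have to meet in one enzyme. T cells draw on this system during expansion and in the memory state.

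Depth and purity bear on every value that follows. Libraries held 21980273 to 26165380 expected counts, and a member had between 592 and 58157 expected counts in a library, so that counting error was small beside the spread between libraries. Levels are given as normalised CPM, counts per library size after scaling between libraries by the TMM method, and levels of different genes are compared only as TPM, which divides by transcript length. Elovl1 itself was at 76.6 to 95.4 CPM in the sgElovl1 libraries and at 254.5 to 282.9 CPM in the sgNT libraries (edgeR's quasi-likelihood test, log2 fold change -1.69, SE 0.12, adjusted p = 8.71e-05), so that some Elovl1 RNA was still measured in the targeted cells. All 8 T cell markers were found in every library. Their summed level was 11410 to 13113 CPM in sgElovl1 and 14886 to 15365 CPM in sgNT libraries, without overlap. Of the 8, 3 were lower and 1, Cd3e, was higher (log2 fold change 0.40, adjusted p = 0.0493). The 12 macrophage and monocyte markers summed to 1552, 1162 and 1147 CPM in sgElovl1 and 836.2, 634.9 and 1253 CPM in sgNT replicates 1 to 3, which overlapped. Most of this was Ly6c2, a gene that CD8+ T cells also express, and the 11 others summed to 101.1, 157.0 and 295.6 CPM in sgElovl1 replicates 1 to 3 and to 44.2, 61.6 and 66.9 CPM in sgNT replicates 1 to 3, and Adgre1 was at 0 in all sgNT libraries. Of the 12, 11 were tested, 3 were higher in sgElovl1 and none lower, with Cd68 at 32.0 against 40.4 CPM (log2 fold change -0.34, adjusted p = 0.159). Markers of KPC tumour epithelium stood at 333.0 CPM in sgElovl1 replicate 3 and 1080 CPM in sgNT replicate 3, against 17.6 to 46.5 CPM in the other 4 libraries. The 5 neutrophil markers summed to 1.31 to 3.34 CPM against 0 to 0.383 CPM, and Csf3r was at 0 in all sgNT libraries. Acinar markers (7 genes, 6.17 to 16.8 CPM) and B cell markers (4 genes, 6.01 to 9.07 CPM) were low in all 6 libraries, and of 7 fibroblast markers Lum and Pdgfra were at 0 throughout, with a sum of at most 0.474 CPM. The part of these differences in the results for the respiratory genes was not tested. In bulk RNA, fewer cells of a type and less RNA per cell cannot be told apart.

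The members as a whole stood close to their control level, and few passed the test. In sgElovl1 cells 1 member was higher (Uqcrq) and 2 were lower (Sdhc and Atp5b), or 2.56% and 5.13% of the 39 (quasi-likelihood test of edgeR, adjusted over all tested genes, threshold 0.05). Over all 12546 genes, 8.64% were called higher and 5.13% lower. Among the 5587 genes with a mean level at or above that of the lowest member (26.2 CPM), 7.98% were called higher and 8.99% lower. The median log2 fold change of the members was -0.09, against -0.00 for all genes tested and -0.11 for genes of at least the lowest member's level, and 28 of the 39 values were negative. Of the 39, 36 lay within 0.5 log2 of no change and 21 within 0.2. Standard errors ran from 0.10 to 0.21 log2, and the 95% interval included 0 for 27 members, lay above it for 4 and below it for 8. These intervals are not adjusted for the number of genes, and the same count over all genes was not made. The sgElovl1 and sgNT libraries did not overlap for 15 members (38.5%), 4 higher and 11 lower, against 37.1% of all genes tested. Over all genes tested, 2438 were higher and 2216 lower without overlap. Among the 5587 genes of at least the lowest member's level, the groups did not overlap for 43.0%, 846 higher and 1555 lower.

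**Figure D1:**
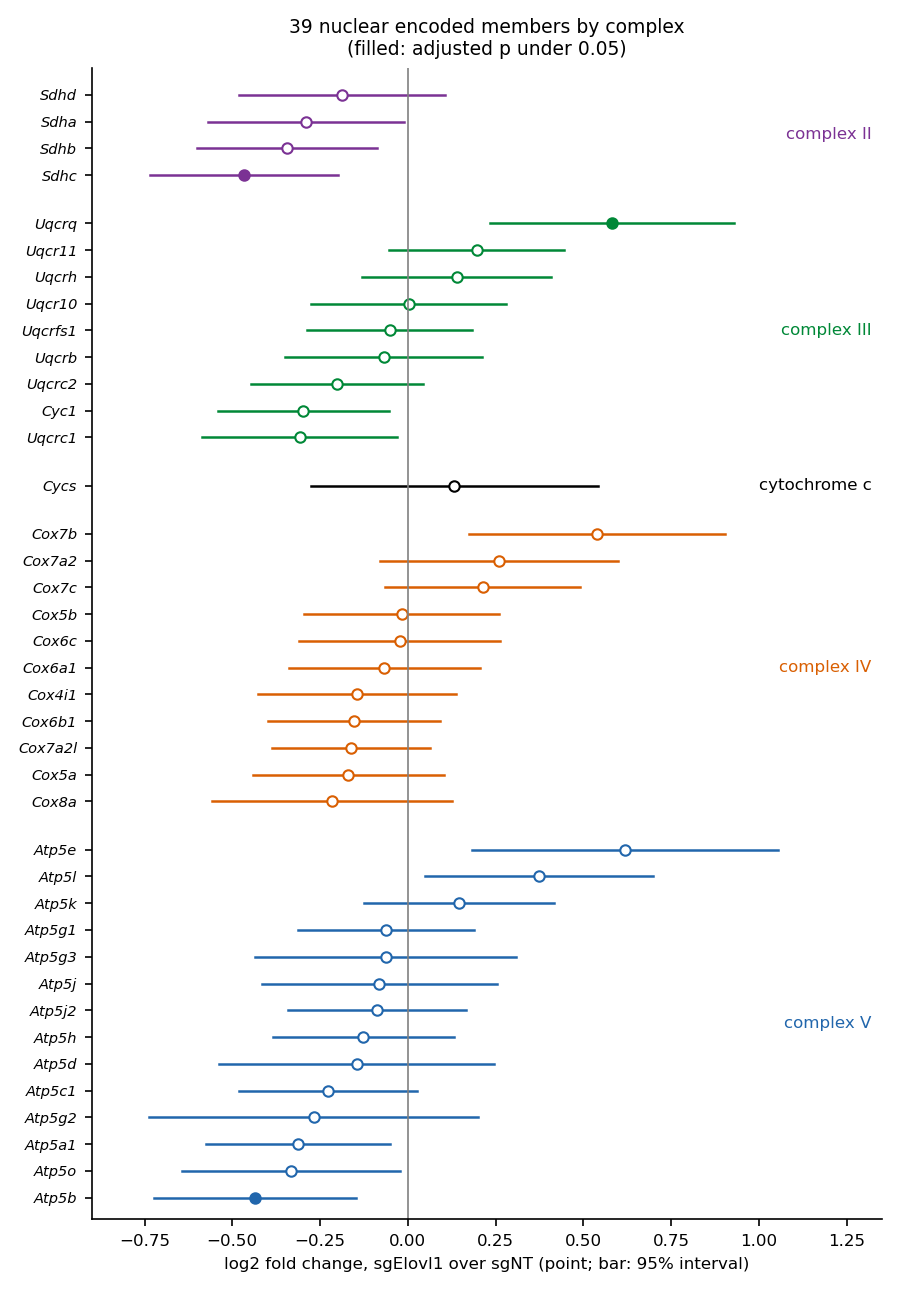
Log2 fold change of sgElovl1 over sgNT for each of the 39 members (point, with its 95% interval as a bar), grouped by complex and ordered within it. Filled points passed the test: Uqcrq (0.58) to the right, and Sdhc (-0.47) and Atp5b (-0.44) to the left of 0, while all 4 members of complex II lie to the left.

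The calls depended on which libraries and which model entered the fit. With the label number as a block (replicates 1, 2 and 3 of both groups paired), Cox7b (adjusted p = 0.0291) and Atp5e (0.0215) were called higher and Sdhc (0.0437) lower, whereas Uqcrq (0.0518) and Atp5b (0.0646) were not called. That fit called 8.92% of all genes higher and 4.44% lower. Without sgElovl1 replicate 3, 2 members were higher (Atp5e and Uqcrq) and 7 lower (Atp5b, Atp5o, Cyc1, Sdhb, Sdhc, Sdhd and Uqcrc1), beside 11.0% and 10.1% of all genes. No member was called without sgElovl1 replicate 1, sgElovl1 replicate 2 or sgNT replicate 2, fits that called 2.95%, 2.15% and 2.55% of all genes higher and 0.623%, 0.323% and 0.488% lower. Without sgNT replicate 1, Atp5e and Cox7b alone were called (both higher, beside 6.07% of all genes higher and 1.34% lower), and without sgNT replicate 3, Uqcrq and Sdhc (beside 7.08% and 3.29%). Without replicate 3 of both groups, the libraries with the most tumour epithelial RNA, 2 members were higher (Uqcr11 and Uqcrq) and 9 lower, all 4 of complex II among them, beside 15.4% of all genes called higher and 16.1% lower. Among the members, sgNT replicate 3 held the highest value of 25 of the 39, and sgElovl1 replicate 2 the lowest of 15 and the highest of none. The same count over all genes was not made. In sgNT replicate 3, members under 1000 bases had a median log2 deviation of 0.193 from their mean over the 6 libraries. It was 0.164 for the 656 genes under 1000 bases of at least the lowest member's level. In sgElovl1 replicate 2 both medians were negative (-0.09 and -0.126). Over the 16 alternative settings tried, 26 members kept 1 sign, and the 13 that did not were Uqcrfs1, Uqcrb, Uqcr10, Cycs, Cox5b, Cox6a1, Cox6c, Cox8a, Atp5d, Atp5g1, Atp5g2, Atp5g3 and Atp5j.

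Complex II was the one complex in which every member had a negative value, and all 4 stayed negative in every alternative. Its 4 genes encode the flavoprotein Sdha, which binds succinate, the iron-sulphur protein Sdhb, and the membrane anchors Sdhc and Sdhd, which hold the haem and the ubiquinone site. Sdhc (chromosome 1, 171127165 to 171150603, GRCm38) was at 119.2, 120.2 and 150.4 CPM in sgElovl1 replicates 1 to 3 and at 180.8, 187.1 and 171.1 CPM in sgNT replicates 1 to 3. All 3 sgElovl1 values lay below all 3 control values, with sgElovl1 replicate 3 nearest to them. Sdhc fell by 0.47 on the log2 scale (129.9 ± 17.7 against 179.7 ± 8.07 CPM, SD, n = 3 each, SE 0.12, adjusted p = 0.0301 by edgeR's test). Leaving out replicate 1 or 2 of either group ended the call (adjusted p up to 0.16), as did limma on log2(TPM + 1) (0.0705), and the value ran from -0.62 to -0.37 over all 16 alternatives.

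The partner anchor Sdhd (chromosome 9, 50596357 to 50603812) had the value nearest to 0 in complex II. Its levels were 246.7, 264.3 and 332.7 CPM in sgElovl1 replicates 1 to 3 and 298.4, 319.5 and 343.0 CPM in sgNT replicates 1 to 3. The groups overlapped through sgElovl1 replicate 3 (281.2 ± 45.5 against 320.3 ± 22.3 CPM, log2 fold change -0.19, SE 0.13, 95% interval -0.48 to 0.10, adjusted p = 0.354). In both catalytic genes the groups did not overlap, but neither passed. Sdhb was at 407.3 to 484.7 CPM in sgElovl1 and 548.1 to 551.6 CPM in sgNT libraries (log2 fold change -0.34, adjusted p = 0.0718), and Sdha at 383.0 to 468.2 and 472.7 to 578.7 CPM (-0.29, adjusted p = 0.143). Without sgElovl1 replicate 3, Sdhb (adjusted p = 0.0134) and Sdhd (0.0488) joined Sdhc below the threshold. Summed over the 4 genes per length, complex II held 1069, 1150 and 1262 TPM in sgElovl1 and 1338, 1460 and 1283 TPM in sgNT replicates 1 to 3, so that the groups lay apart by a narrow margin.

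In complex III, Uqcrq alone passed the test. The 2 large core proteins (Uqcrc1 and Uqcrc2), the Rieske iron-sulphur protein Uqcrfs1 and cytochrome c1 (Cyc1), the parts that carry electrons or frame the enzyme, all had negative values, whereas 4 of the 5 small accessory subunits (Uqcrq, Uqcr11, Uqcrh, Uqcr10, with Uqcrb the exception) had positive ones, that of Uqcr10 being 0.00. Uqcrfs1, Uqcrb and Uqcr10 changed sign among the alternatives, and the difference between both kinds of subunit was not tested. Uqcrq, which encodes subunit VII and lies on chromosome 11 (53427922 to 53430831), was at 125.3, 113.5 and 82.6 CPM in sgElovl1 replicates 1 to 3 and at 73.4, 62.8 and 78.6 CPM in sgNT replicates 1 to 3. The groups did not overlap, although sgElovl1 replicate 3 lay close to the highest control. Uqcrq rose by 0.58 log2 (107.1 ± 22.1 against 71.6 ± 8.06 CPM, SD, n = 3 each, SE 0.16, adjusted p = 0.0353 by edgeR's test). Leaving out replicate 1 or 2 of either group took it past the threshold (adjusted p up to 0.154), and so did the block given above. Its value ran from 0.45 to 0.81 over the alternatives.

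At the other end of complex III stood the core gene Uqcrc1 (chromosome 9, 108936633 to 108949623). It was at 501.7, 573.1 and 626.4 CPM in sgElovl1 replicates 1 to 3 and at 694.3, 755.3 and 656.0 CPM in sgNT replicates 1 to 3. The groups did not overlap (567.1 ± 62.6 against 701.9 ± 50.1 CPM, log2 fold change -0.31, SE 0.13, 95% interval -0.59 to -0.03, adjusted p = 0.12). Cyc1 (275.8 ± 15.02 against 339.1 ± 21.9 CPM, -0.30, adjusted p = 0.0915) and Uqcrc2 (231.7 ± 8.34 against 266.7 ± 24.4 CPM, -0.20, adjusted p = 0.232) did not overlap either. Both Uqcrc1 (adjusted p = 0.036) and Cyc1 (0.0448) were called without sgElovl1 replicate 3. The remaining values were 0.20 for Uqcr11, 0.14 for Uqcrh, 0.00 for Uqcr10, -0.05 for Uqcrfs1 and -0.07 for Uqcrb, with overlapping groups in all 5. Per length, the 5 small subunits summed to 3795, 3641 and 3574 TPM in sgElovl1 and 3120, 2910 and 3410 TPM in sgNT replicates 1 to 3, and the 4 core and cytochrome genes to 1020, 1106 and 1126 against 1180, 1326 and 1184 TPM. Neither pair of sums overlapped, and they lay in opposite directions.

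Cycs encodes cytochrome c, the small soluble carrier between complexes III and IV that also triggers the apoptosome once released from mitochondria. The gene (chromosome 6, 50562563 to 50566538) was at 707.2, 649.5 and 1013 CPM in sgElovl1 replicates 1 to 3 and at 701.9, 607.1 and 853.5 CPM in sgNT replicates 1 to 3. Replicate 3 was the highest in both groups, and the groups overlapped (790.0 ± 195.6 against 720.9 ± 124.3 CPM, log2 fold change 0.13, SE 0.18, 95% interval -0.28 to 0.54, adjusted p = 0.659 by edgeR's test). Without sgElovl1 replicate 3 the log2 fold change was -0.09. Near-identical copies of Cycs are annotated in the mouse genome: 4 genes matched its transcript at 95% identity or more over at least 200 bases. The 1 with counts, Gm10053, is annotated as protein coding and held 2.21% as many as Cycs.

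Complex IV, cytochrome c oxidase, had no called member. Its 11 nuclear subunits surround a mitochondrially encoded core, and Cox4i1, Cox5a and Cox5b among them regulate or stabilise it. Cox7b, a small membrane subunit encoded on the X chromosome (106015700 to 106022450), had the highest value. It was at 162.3, 144.3 and 161.0 CPM in sgElovl1 replicates 1 to 3 and at 132.3, 79.4 and 110.3 CPM in sgNT replicates 1 to 3. All sgElovl1 values lay above all control values, which were the more widely spread (155.9 ± 10.02 against 107.3 ± 26.6 CPM, log2 fold change 0.54, SE 0.17, 95% interval 0.17 to 0.90, adjusted p = 0.0539 by edgeR's test). It was called in 7 of 16 alternatives, with values from 0.36 to 0.73 and a highest adjusted p of 0.223. Besides the block these were DESeq2 (adjusted p = 0.0147), limma-voom (0.0434), without a filter (0.00818), on log2(TPM + 1) (0.0282), with the length offset (0.0398) and without sgNT replicate 1 (0.0374).

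The lowest value in complex IV belonged to Cox8a, the ubiquitous form of the smallest subunit (chromosome 19, 7215153 to 7217616). Its levels were 287.5, 247.0 and 190.6 CPM in sgElovl1 replicates 1 to 3 and 254.6, 268.4 and 319.7 CPM in sgNT replicates 1 to 3. Replicate 3 was the lowest of sgElovl1 and the highest of sgNT, and the groups overlapped (241.7 ± 48.7 against 280.9 ± 34.3 CPM, log2 fold change -0.22, SE 0.16, 95% interval -0.56 to 0.13, adjusted p = 0.361), and without replicate 3 of both groups the log2 fold change was 0.03. The other 9 members ran from -0.17 (Cox5a) to 0.26 (Cox7a2). Cox6b1 (237.8 ± 10.02 against 264.6 ± 23.8 CPM) and Cox7a2l (104.4 ± 3.32 against 116.7 ± 3.32 CPM) were lower without overlap. Neither passed edgeR's test (adjusted p = 0.366 and 0.298). Cox7a2l is a gene linked to supercomplexes of complexes III and IV, which were not measured here. Exons of Cox4i1 and Cox6c overlap those of Emc8 and Vps13b on the opposite strand, which held 14.4% and 8.64% as many counts. Of 8 isoforms known from other tissues, Cox4i2, Cox7b2, Cox8b, Cox8c and the testis cytochrome c gene Cyct had no count in any library, and Cox6a2, Cox6b2 and Cox7a1 did not exceed 1.70 CPM.

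**Figure D2:**
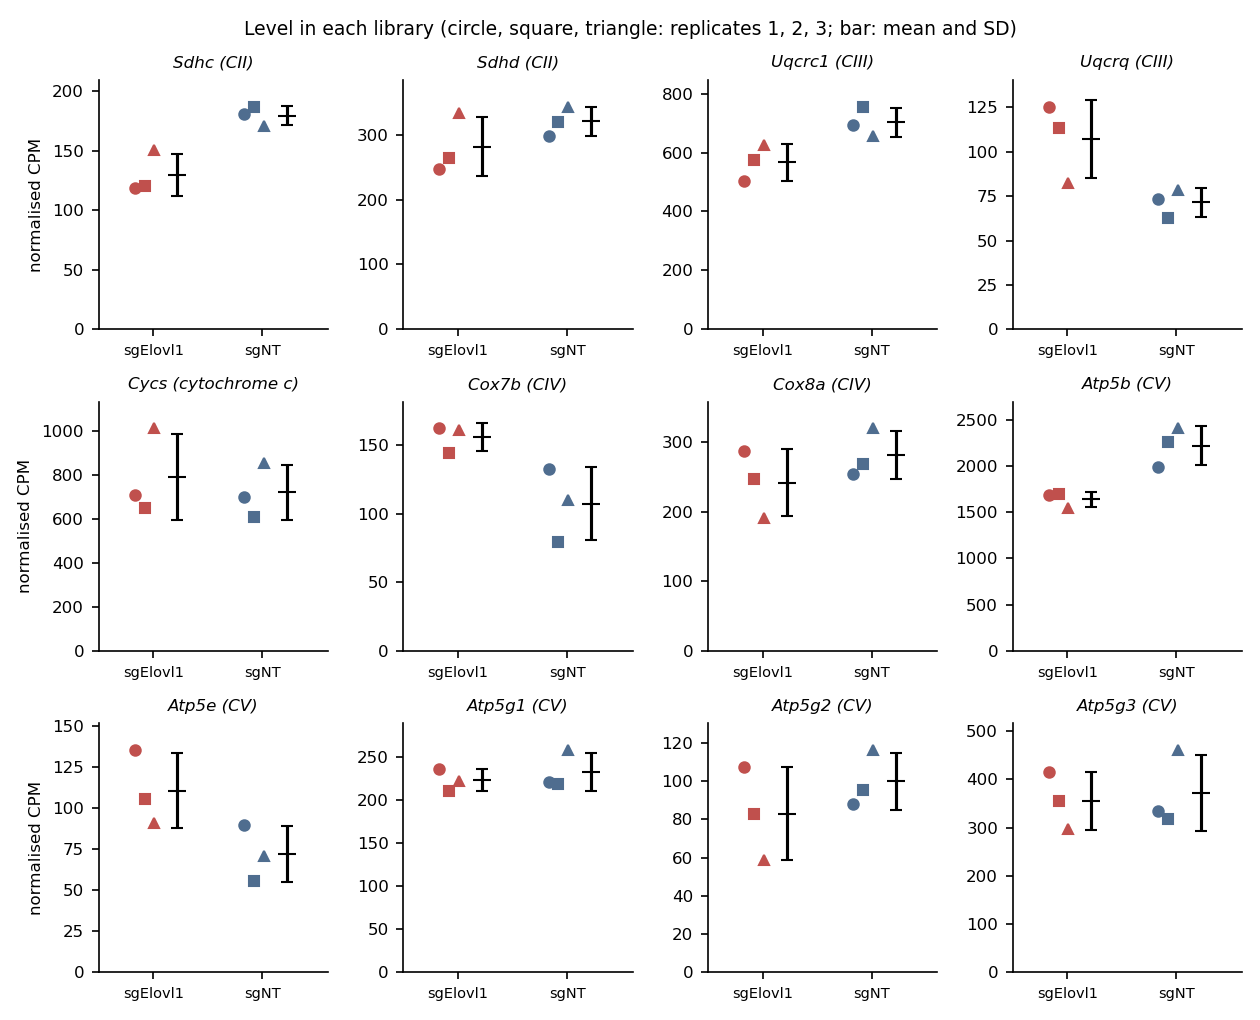
Normalised CPM in each library for the 12 members described in full (red sgElovl1, blue sgNT, symbol by replicate number, black bar mean and SD, n = 3 per group, axes from 0). The groups do not overlap for Sdhc, Uqcrc1, Uqcrq, Cox7b, Atp5b and Atp5e, and sgElovl1 replicate 3 is the lowest of all 6 libraries for Cox8a, Atp5b, Atp5g2 and Atp5g3.

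Complex V contained both the most abundant member and the largest positive value. ATP synthase has a catalytic F1 head (alpha, beta, gamma, delta and epsilon, from Atp5a1, Atp5b, Atp5c1, Atp5d and Atp5e), a membrane rotor ring of c subunits (Atp5g1, Atp5g2 and Atp5g3), a peripheral stalk (Atp5h, Atp5j and Atp5o among the members) and small membrane subunits (Atp5j2, Atp5k and Atp5l). Atp5b (chromosome 10, 128083273 to 128090391), whose product holds the catalytic sites, was at 1681, 1694 and 1546 CPM in sgElovl1 replicates 1 to 3 and at 1986, 2261 and 2407 CPM in sgNT replicates 1 to 3. Every sgElovl1 library lay below every control library. Atp5b fell by 0.44 log2 (1640 ± 82.1 against 2218 ± 213.6 CPM, SD, n = 3 each, SE 0.13, adjusted p = 0.0493 by edgeR's test). It was just inside the threshold and was called in 6 of 16 alternatives, with values from -0.49 to -0.33 and a highest adjusted p of 0.169.

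Within the same F1 head, Atp5e (chromosome 2, 174461072 to 174464105) lay in the opposite direction. It was at 135.6, 105.4 and 91.1 CPM in sgElovl1 replicates 1 to 3 and at 89.7, 55.5 and 71.2 CPM in sgNT replicates 1 to 3. The groups stayed apart only narrowly, between sgElovl1 replicate 3 and sgNT replicate 1 (110.7 ± 22.7 against 72.1 ± 17.1 CPM, log2 fold change 0.62, SE 0.19, 95% interval 0.18 to 1.05, adjusted p = 0.0631 by edgeR's test). Its value was the highest of all 39 and was called in 7 of 16 alternatives, DESeq2 (adjusted p = 0.0118) and the length offset (0.0354) among them. The level of Atp5b per length was 1.61 times that of Atp5e in sgElovl1 cells (1.41 to 1.77 over libraries) and 3.62 times in sgNT cells (2.64 to 5.08), although one molecule of the enzyme holds several beta subunits and a single epsilon. Atp5a1 (log2 fold change -0.31, adjusted p = 0.0992) and Atp5c1 (-0.23, 0.195) were lower without overlap, and Atp5d (-0.15, 0.606) overlapped.

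The c ring is drawn from 3 genes whose coding sequences have diverged while the mature protein has not. The last 75 codons before the stop, printed here to show how reads of the 3 genes can be told apart, encode the same residues in all 3 and differ at 57 of 225 positions (capitals), 52 of them the last base of a codon. The printed stretches are coding exons on the minus strand of GRCm38, taken from GENCODE M21 transcripts, and lie within chr11:96073107-96073635 (Atp5g1), chr15:102663017-102665166 (Atp5g2) and chr2:73908596-73909296 (Atp5g3).
Atp5g1: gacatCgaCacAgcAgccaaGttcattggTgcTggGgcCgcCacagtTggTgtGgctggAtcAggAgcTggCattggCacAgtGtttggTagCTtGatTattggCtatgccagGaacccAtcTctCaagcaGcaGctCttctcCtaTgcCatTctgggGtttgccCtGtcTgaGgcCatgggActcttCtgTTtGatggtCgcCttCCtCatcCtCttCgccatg
Atp5g2: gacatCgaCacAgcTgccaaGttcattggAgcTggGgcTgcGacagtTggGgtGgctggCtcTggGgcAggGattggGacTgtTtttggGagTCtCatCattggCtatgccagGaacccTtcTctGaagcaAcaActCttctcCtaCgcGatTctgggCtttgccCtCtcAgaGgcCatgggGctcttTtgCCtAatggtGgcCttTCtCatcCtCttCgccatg
Atp5g3: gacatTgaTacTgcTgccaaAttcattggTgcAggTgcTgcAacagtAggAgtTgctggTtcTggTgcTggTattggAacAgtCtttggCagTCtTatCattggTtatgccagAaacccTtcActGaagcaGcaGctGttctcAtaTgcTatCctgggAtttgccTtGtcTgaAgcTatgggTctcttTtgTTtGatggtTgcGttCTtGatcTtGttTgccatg
Pairwise identity was 84.9% for Atp5g1 and Atp5g2, 80.0% for Atp5g1 and Atp5g3, and 78.7% for Atp5g2 and Atp5g3.

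None of the 3 c ring genes was called, and all 3 pairs of groups overlapped. Atp5g1 was at 236.1, 210.7 and 222.2 CPM in sgElovl1 replicates 1 to 3 and 221.0, 219.2 and 258.5 CPM in sgNT replicates 1 to 3 (223.0 ± 12.7 against 232.9 ± 22.2 CPM, log2 fold change -0.06, SE 0.11, adjusted p = 0.741 by edgeR's test). Its 95% interval, -0.31 to 0.19, was among the narrower ones. Atp5g2 was at 107.3, 82.8 and 58.9 CPM in sgElovl1 and 87.9, 95.7 and 116.5 CPM in sgNT replicates 1 to 3 (83.0 ± 24.3 against 100 ± 14.8 CPM, -0.27, SE 0.21, 95% interval -0.74 to 0.20, adjusted p = 0.403). Atp5g3 was at 415.9, 354.3 and 296.3 CPM in sgElovl1 and 335.4, 317.8 and 461.5 CPM in sgNT replicates 1 to 3 (355.5 ± 59.8 against 371.6 ± 78.4 CPM, -0.06, SE 0.17, 95% interval -0.43 to 0.31, adjusted p = 0.825). For Atp5g2 and Atp5g3, replicate 3 was the lowest of the sgElovl1 and the highest of the sgNT libraries. Without replicate 3 of both groups, the log2 fold changes were 0.02, 0.05 and 0.24 for Atp5g1, Atp5g2 and Atp5g3, none called. The order per length was Atp5g3, Atp5g1 and Atp5g2 in both groups (882.6, 721.5 and 206.7 TPM in sgElovl1, 863.3, 707.6 and 231.2 TPM in sgNT), the first 2 of which overlapped in their spread. A near-identical annotated copy of Atp5g2 held 4.99% as many counts as Atp5g2.

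The remaining subunits of complex V gave no call. Atp5l, a small membrane subunit, was higher without overlap (211.3 ± 23.3 against 163.2 ± 29.7 CPM, log2 fold change 0.37, adjusted p = 0.109), and Atp5k had a value of 0.15 and Atp5j2 of -0.09. In the peripheral stalk the values were -0.33 for Atp5o (adjusted p = 0.13), -0.13 for Atp5h and -0.08 for Atp5j. Exons of Atp5j overlap those of Gabpa, a transcription factor gene, on the opposite strand, and Gabpa held 12.0% as many counts. Summed per length, the 5 genes of the F1 head gave 3204 to 4044 TPM in sgElovl1 and 3917 to 4174 TPM in sgNT libraries, which overlapped, and the 3 small membrane subunits 1517 to 1719 against 1199 to 1388 TPM, which did not.

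Among the members, values tended to be higher for shorter transcripts. Of the 26 members under 1000 bases, 10 had positive values (median log2 fold change -0.06), whereas all 11 members of 1000 to 2500 bases were negative (median -0.30), 9 of them without overlap (81.8%). All 9 were lower. Over all 6036 tested genes of 1000 to 2500 bases the groups did not overlap for 38.2%, 686 higher and 1621 lower. Of the 3021 genes of this length and at least the lowest member's level, 2355 were negative (median -0.21). The groups did not overlap for 45.8% of these, 194 higher and 1191 lower. Of the 656 genes under 1000 bases at that level, 254 were positive (median -0.08). The 2 longer members, Sdha and Cycs, had values of -0.29 and 0.13. Spearman's rho between length and log2 fold change was -0.69 over the 39 members, 0.07 over the 4086 genes of the members' range of length and at least the lowest member's level, and 0.30 over all 12546 genes, as a description across genes that share libraries and so are not independent. Over genes of at least the lowest member's level, the median was lower in each longer class up to 1500 bases and higher again beyond. It was 0.21 for 350 to 500 bases (49 genes), 0.01 for 500 to 700, -0.14 for 700 to 1000, -0.23 for 1000 to 1500, -0.19 for 1500 to 2500 and 0.05 for 2500 to 4000 bases. Member medians in these classes were 0.15, -0.07, -0.15, -0.26, -0.31 and -0.08. Over all tested genes under 1000 bases 3.82% were called higher and 4.08% lower, over those of 1000 to 2500 bases 4.57% and 8.37%, and over longer ones 15% and 1.54%. The 11 members of 1000 to 2500 bases were Sdhb, Sdhc, Sdhd, the 4 core and cytochrome subunits of complex III, Cox7a2l, Atp5a1, Atp5b and Atp5c1, whereas Atp5e (424 bases) and Atp5d (931 bases) of the F1 head were among the shorter ones.

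**Figure D3:**
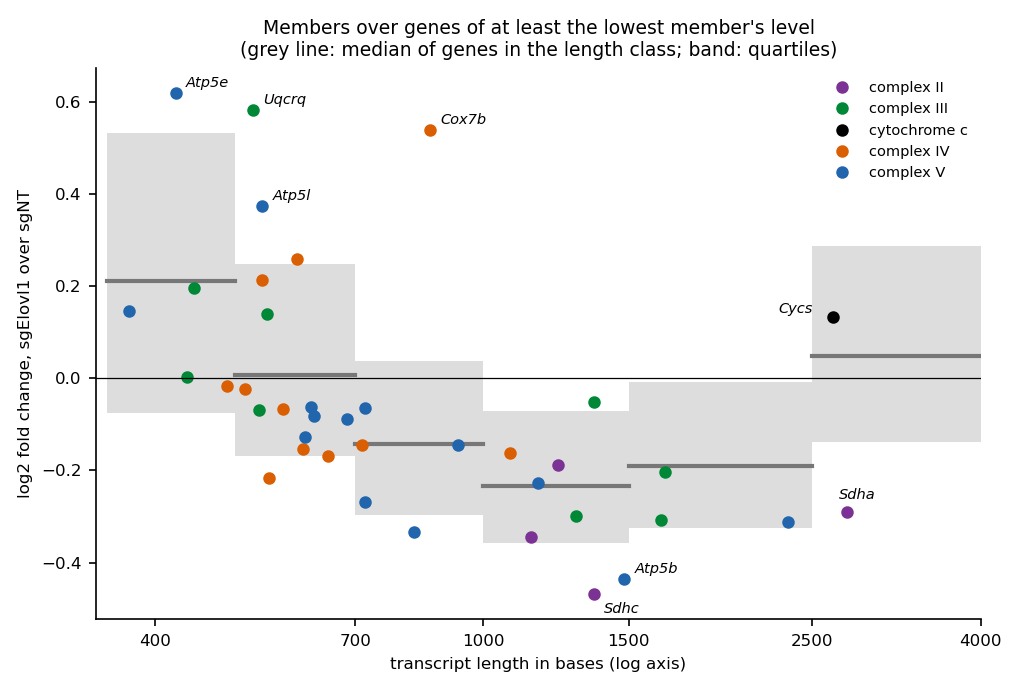
Log2 fold change of sgElovl1 over sgNT against transcript length (log axis) for the 39 members, coloured by complex, over the median (grey line) and quartiles (grey band) of genes with at least the lowest member's level in each length class. Atp5e (0.62), Uqcrq (0.58) and Cox7b (0.54) are among the members above the upper quartile of their class, and Sdhc (-0.47) and Atp5b (-0.44) among those below the lower one.

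An offset was fitted that removes from each library a smooth trend on length together with the library's mean log2 deviation over genes. With this offset, the median of all genes was -0.11 log2. Calls over all genes turned from 8.64% higher and 5.13% lower to 4.73% higher and 7.29% lower. How much of this came from the mean deviation and how much from the length trend was not tested. Among the members, Uqcrq (0.47, adjusted p = 0.0489), Cox7b (0.51, 0.0398) and Atp5e (0.58, 0.0354) were then higher and Sdhc (-0.43, 0.04) and Sdha (-0.45, 0.0403) lower, whereas Atp5b (-0.38, 0.0685) was not called. The median of the members was -0.18, and rho with length was -0.53 for the members and 0.025 over all genes tested, from -0.69 and 0.30 without the offset. Sdhc and Uqcrq kept their call under this offset and under one for length and GC content together.

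Per length, the 39 members together made up 2.41 to 2.56% of all TPM in sgElovl1 and 2.38 to 2.58% in sgNT libraries, which overlapped. Atp5b was the highest in both groups (1416 ± 148.4 TPM in sgElovl1, 1900 ± 184.9 TPM in sgNT), followed by Cox6a1 and Atp5j. The lowest were Cox7a2l (139.8 ± 5.75 and 148.2 ± 4.33 TPM) and Sdhc (126.6 ± 8.6 and 168.0 ± 18.0 TPM). Subunits of one complex were not at equal levels: Sdhb stood at 4.22 times Sdhc in sgElovl1 and 3.84 times in sgNT cells, and Atp5b at 3.43 and 3.85 times Atp5a1, which the enzyme holds in equal numbers. Complex V held 39 to 40.7% of the summed member TPM in every library and complex IV 34.2 to 36.0%. The share of complex II was 4.18 to 5.23% in sgElovl1 and 4.96 to 6.14% in sgNT libraries, which overlapped, and that of complex III was 18.8 to 19.5% against 17.8 to 17.9%, without overlap.

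**Figure D4:**
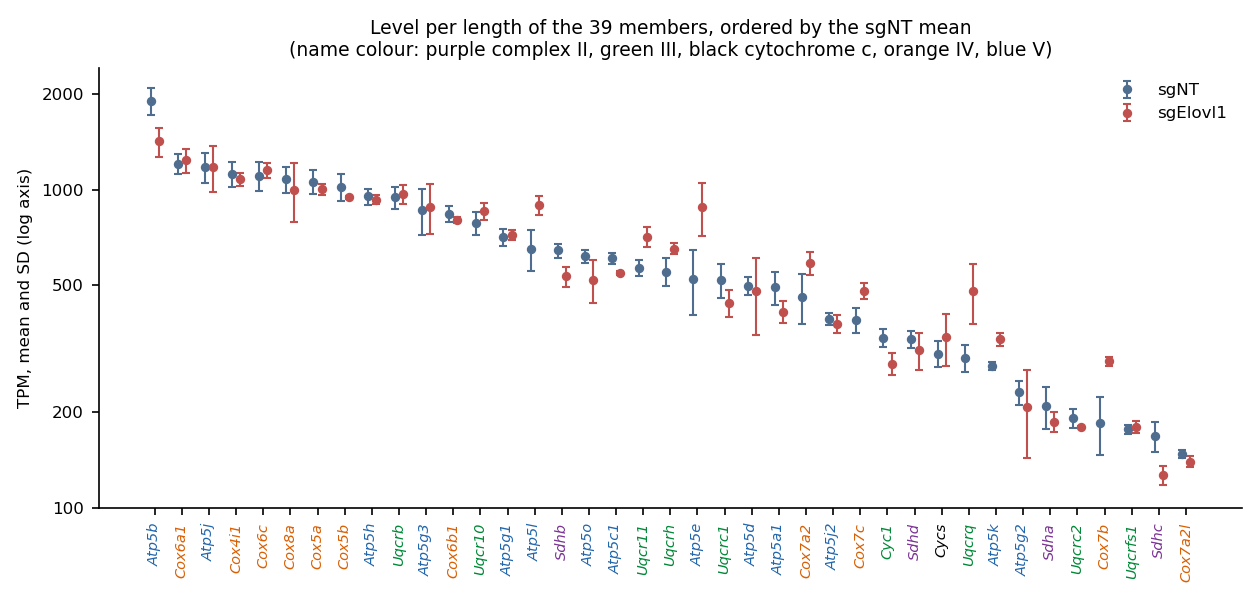
Level per length (TPM, log axis, mean and SD, n = 3 per group) of the 39 members, ordered by the sgNT mean, with names coloured by complex. Atp5b is the highest in both groups, and Atp5e, Uqcrq and Cox7b show the widest upward gap of sgElovl1 over sgNT.

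The mitochondrially encoded partners differed from these nuclear genes. All 6 (mt-Cytb of complex III, mt-Co1, mt-Co2 and mt-Co3 of complex IV, mt-Atp6 and mt-Atp8 of complex V) were higher in sgElovl1, by 1.63 to 3.23 log2, while the 34 nuclear members of the same 3 complexes ran from -0.44 to 0.62. mt-Atp6, the proton channel subunit, was at 2808, 2642 and 2372 CPM in sgElovl1 replicates 1 to 3 and at 1032, 583.6 and 593.9 CPM in sgNT replicates 1 to 3 (log2 fold change 1.82, SE 0.22, adjusted p = 0.00161 by edgeR's test). The ratio of mitochondrially to nuclear encoded TPM was 0.394 to 0.566 in sgElovl1 and 0.0859 to 0.188 in sgNT libraries for complex III, 0.677 to 1.15 and 0.135 to 0.305 for complex IV, and 1.22 to 1.51 and 0.269 to 0.531 for complex V. The groups lay apart for all 3 complexes, while the nuclear sums overlapped for complexes IV and V and were higher in sgElovl1 for complex III. mt-Atp8 is annotated at 204 bases, so its TPM rests on 18.8 and 6.07 CPM. Of the 6, 2 were called without sgElovl1 replicate 1, 3 without sgElovl1 replicate 2 and 3 without sgNT replicate 3. The sgElovl1 libraries also carried the lower T cell marker sum and the higher sum of macrophage markers without Ly6c2 given above, whose part in these values was not tested.

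**Figure D5:**
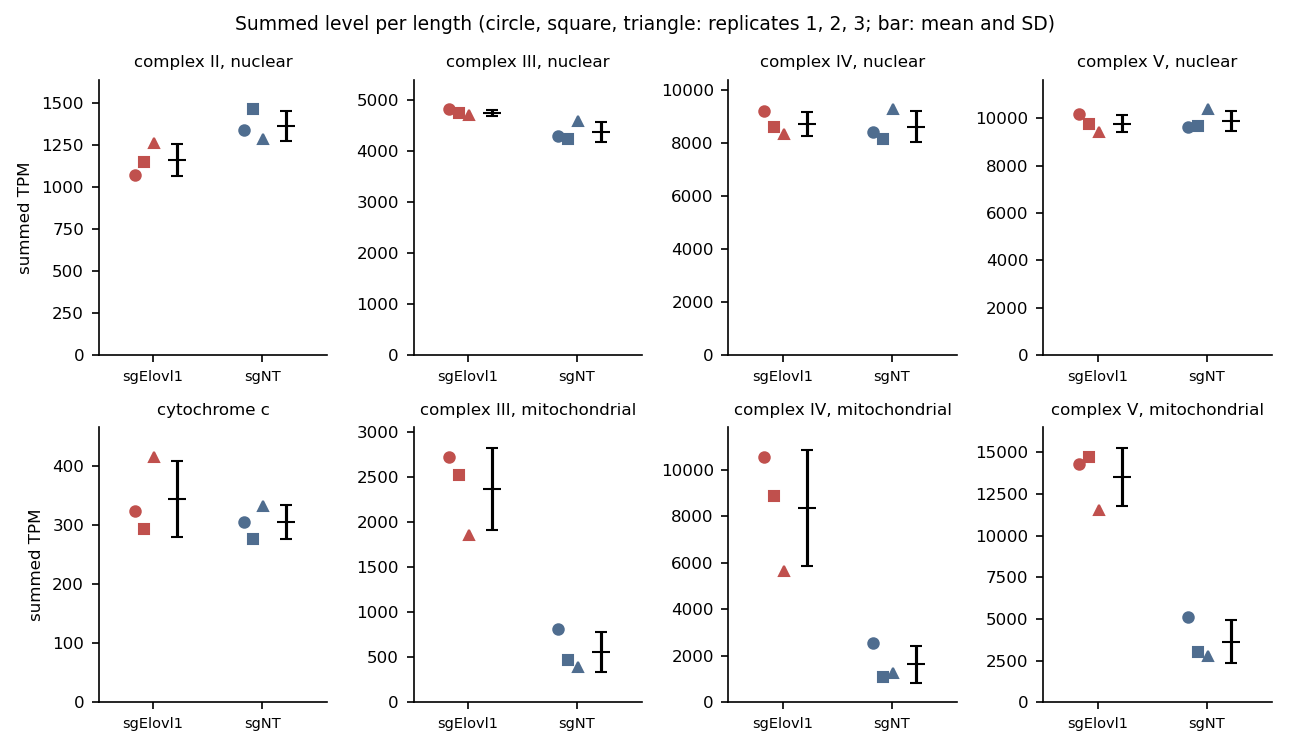
Summed TPM per library of the nuclear encoded members by complex (upper row and cytochrome c) and of their mitochondrially encoded partners (lower row), with mean and SD (n = 3 per group) and axes from 0. The nuclear sums of complexes IV and V overlap between the groups, complex II lies at 1069 to 1262 TPM in sgElovl1 and 1283 to 1460 TPM in sgNT, whereas each mitochondrial sum is higher in every sgElovl1 library.

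Other genes of the pathway were read from the same fit, which called 8.64% of all genes higher and 5.13% lower. Of 36 nuclear subunits of complex I, all tested, 1 was higher and 3 were lower by edgeR's test (2.78% and 8.33%, median log2 fold change -0.07). Among them, Ndufb2, a small accessory subunit, was higher (0.51, adjusted p = 0.0425), and the core subunits Ndufs3 (-0.40, 0.0414) and Ndufv1 (-0.46, 0.0176) were lower. Of 35 tested assembly factors, Ttc19 of complex III was higher (0.57, 0.0384), and Surf1 of complex IV (-0.42, 0.0421) and Atpaf2 of complex V (-0.43, 0.0362) were lower (2.86% and 5.71%, median -0.12). Of 7 further nuclear subunits and regulators, Usmg5, a small subunit of ATP synthase encoded by a 364-base transcript, was higher (0.70, 0.017). None of the 9 tested regulators of nuclear respiratory genes was called (median 0.03), and Ppargc1a, whose product coactivates them, was not tested, with counts in 1 of 6 libraries. These counts moved with single libraries: without sgElovl1 replicate 3, 11 complex I genes and 6 assembly factors were lower (beside 10.1% of all genes), and without sgElovl1 replicate 1 or 2 none was (0.623% and 0.323% of all genes).

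The promoters of the members were searched for short motifs of factors linked to respiratory genes, as a description of what these genes share. RefSeq promoters on GRCm38.p6 (250 bases before to 50 after the start site) were held for 31 of the 39 members. The missing entries were Atp5a1, Cox4i1, Cox6c, Cyc1, Sdhc, Uqcrb, Uqcrc2 and Uqcrq. A motif of nuclear respiratory factor 1 (GCGCA and GCGC with any 1 base between them, either strand, as for the other motifs) occurred in 10 of the 31 (32.3%), against 12.2% of the 9296 promoters of tested genes and 5.19% of all 27025 genes with a promoter. It was found for Sdha, Sdhd, Uqcrc1, Cox6a1, Atp5c1, Atp5g2, Atp5g3, Atp5h, Atp5k and Atp5o. The ETS motif CCGGAAGT occurred in 4 (12.9%, against 9.92% of tested genes) and the YY1 motif AAGATGGCG in 2 (6.45%, against 3.87%). Windows of 30 bases around the first motif are printed for 4 members of complexes II and V in which it lies before the start site, with the motif in capitals.
Sdha (chr13:74350319-74350348, minus strand): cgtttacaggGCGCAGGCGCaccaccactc
Sdhd (chr9:50603909-50603938, minus strand): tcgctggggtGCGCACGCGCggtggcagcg
Atp5g2 (chr15:102671070-102671099, minus strand): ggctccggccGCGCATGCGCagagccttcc
Atp5k (chr5:108434430-108434459, minus strand): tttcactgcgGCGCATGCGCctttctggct
The members with the motif had log2 fold changes from -0.33 (Atp5o) to 0.15 (Atp5k), and none of them was called, so the 3 called members either lacked the motif in this window (Atp5b) or had no entry (Sdhc and Uqcrq).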

How the data were processed

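Bulk RNA of 6 libraries was analysed, grouped by sample title into sgElovl1 and sgNT (n = 3 each). Cells of different mice were separate replicates per the labels, except for the pooled tumours given above, and p-values measure the spread between these samples. Per the submitters' processing notes, the authors mapped SMARTer-amplified, paired reads to mm10 with STAR 2.7.7a and quantified genes with RSEM 1.3.1. The annotation release and the strand setting of the counting are not given in the sources used here. The deposited expected counts are estimated fragments per gene, unscaled between libraries, and were rounded for all count tests. The deposited TPM values, scaled by the authors for length and library, were used for levels between genes and in 1 alternative. Symbols and coordinates follow GENCODE M21 on GRCm38, the assembly of mm10, in which 55144 of 55471 IDs matched. Transcript lengths are the deposited gene lengths, estimated by the authors per library and averaged here over the 6 libraries. Atp5o has a second ID with 0 counts, which was not used.

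Groups were compared in R 4.3.3 with edgeR 4.0.16 (low genes removed by filterByExpr at a minimum count of 10, TMM, robust quasi-likelihood fits with group as the only term, two-sided test, Benjamini-Hochberg over 12546 genes, called at adjusted p under 0.05). The biological coefficient of variation was 0.22. The steps were tested on simulated data drawn for this comparison (12546 genes): 16.4% of genes changed by 0.5 log2 were found, 56.7% of those changed by 1 and 98.5% of those changed by 2, with 0.0497% of unchanged genes called. Alternatives were DESeq2 1.42.0, median-of-ratios factors, limma-voom and limma on log2(TPM + 1) (limma 3.58.1), no filter, a replicate block, a smooth length offset (mgcv 1.9.3), near-identical copies added (blastn 2.17.0), each library left out, and replicate 3 of both groups left out together. A length and GC offset was chosen after seeing the data. Both offsets also removed each library's mean log2 deviation over genes. Deviations of same-numbered libraries from their group means correlated at 0.21, 0.24 and 0.41 for replicates 1, 2 and 3. Those of differently numbered libraries correlated at -0.29 to 0.17, with 0.17 for sgElovl1 replicate 1 and sgNT replicate 2. The labels share the numbers but state no pairing, so the pairing in the block fit was an assumption. No pair of libraries within a group agreed within sampling noise, and pairs across the groups were not compared in this way. Members described in full were those called, the highest and the lowest value in each complex, Cycs and the c ring genes, 12 in all. Other genes named were Elovl1, the mitochondrial partners, the tissue isoforms and called genes of the other lists, 1 of which is not reported here. Further members given with values were picked with the values in view. The members and lists were chosen with earlier results of these data known.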

Additional observations from a re-analysis of the deposited data

How the results depend on the processing

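The number of members called depended on the model and on single libraries. Over 16 alternatives, which refit the same libraries or part of them, 26 of 39 members kept 1 sign, 9 positive and 17 negative. The share of all genes that kept 1 sign was not computed. Of the members, 24 were called in none. Elovl1 was lower and called in all 16. Members higher numbered 1 in the main test, 3 with DESeq2, log2(TPM + 1) and the length offset, 2 with limma-voom, no filter, the replicate block, the length and GC offset and without replicate 3 of both groups, and 0 to 2 with 1 library left out. Members lower numbered 2 in the main test, 5 with DESeq2, 1 with no filter and the replicate block, 0 on log2(TPM + 1), 4 with the length and GC offset, 9 without replicate 3 of both groups and 0 to 7 with 1 library left out. Shares of all genes called moved as well. Higher and lower, they were 9.64% and 8.06% with DESeq2, 9.49% and 5.69% with limma-voom, and 5.81% and 2.91% with no filter. On log2(TPM + 1) they were 7.36% and 1.29%, and with the length and GC offset 4.9% and 8.27%. The 2 calls lost with the replicate block were Uqcrq and Atp5b, the 2 gained were Cox7b and Atp5e, and it changed no other member's call.

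Over all genes, 1084 higher and 643 lower calls became 923 and 162 on log2(TPM + 1), 594 and 915 with the length offset, 615 and 1037 with the length and GC offset, 1256 and 1050 with DESeq2, 1414 and 1304 without sgElovl1 replicate 3 and 1947 and 2039 without replicate 3 of both groups. They became 279 and 42 without sgElovl1 replicate 2. Without a filter the median of all genes was 0.12 log2.

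Among the 12 members described in full, signs reversed for 5, none of them called: Cycs (-0.20 with the length and GC offset, -0.09 without sgElovl1 replicate 3), Cox8a (0.03 without replicate 3 of both groups), Atp5g1 (0.03 on log2(TPM + 1) and without sgNT replicate 3, 0.02 without replicate 3 of both groups), Atp5g2 (0.05 without replicate 3 of both groups) and Atp5g3 (0.03 on log2(TPM + 1), 0.05 without sgElovl1 replicate 3, 0.14 without sgNT replicate 3, 0.24 without replicate 3 of both groups). With 1 library left out, the value ran from -0.09 to 0.28 for Cycs, -0.11 to 0.03 for Atp5g1 and -0.19 to 0.14 for Atp5g3. The cause was not tested. Members had at least 592 counts a library. In simulated data of this design 16.4% of changes of 0.5 log2 were found, a size that 36 of the 39 members did not reach. The changed genes there were drawn from levels below the members' as well. Fewer genes were changed than were called in the data, so this share is not the rate for the members.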
